A study of Homo sapiens with 8 samples.

Results

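The ZFP36 family and the mRNA deadenylation machinery were taken as 10 genes chosen by symbol: the RNA-binding proteins ZFP36, ZFP36L1 and ZFP36L2, the CCR4-NOT subunits CNOT1, CNOT6, CNOT7 and CNOT8, the deadenylases PAN2 and PARN, and the stabilising protein ELAVL1. On the array, 9 of the 10 genes had values, through 19 features (a feature is 1 probe of the platform), out of 25094 features and 13469 genes with values. No feature of CNOT6 was listed in the annotation used, and 1 further feature of ZFP36L1 had no value. Expression was measured in HEK293, a cell line made from human embryonic kidney by transformation with adenovirus 5, on Agilent arrays. The sense group was 4 samples of cells overexpressing a KLHL29 intronic transcript in its sense orientation. The antisense group was 4 samples that overexpressed it in the opposite, antisense orientation. Both groups carried the linearised pBudCE4.1 vector and had been selected with zeocin. Per the labels, each construct was transfected in 1 transfection and kept as a mixed population, and its replicates were frozen vials thawed and grown apart. The p-values therefore measure the spread between cultures of 1 transfected pool, and the construct and the pool that carries it cannot be told apart. Cells without the insert, whether untransfected or with empty vector, were not analysed here. Replicates 1 and 3 of each construct were labelled with Cy3 and replicates 2 and 4 with Cy5.

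An mRNA is commonly destroyed by first shortening its poly(A) tail. ZFP36, also called tristetraprolin, and its paralogs ZFP36L1 and ZFP36L2 bind AU-rich elements in the 3′ untranslated regions of short-lived mRNAs and recruit CCR4-NOT through its scaffold CNOT1. CNOT7 and CNOT8 are alternative catalytic subunits of that complex, and PAN2 and PARN are separate poly(A) nucleases. ELAVL1, or HuR, binds similar elements and stabilises the mRNAs. ZFP36 is itself an immediate-early gene, switched on quickly by serum and stress signals, and its own mRNA carries AU-rich elements.

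The 250 bases before the start of ZFP36, and before each of the 2 annotated starts of ZFP36L1, are shown because these paralogs are the ones whose values are compared below, and because ZFP36 is known as a gene induced through its promoter. The sequences are those of RefSeq on GRCh38.p14, at chr19:39406597-39406846 on the plus strand for ZFP36, and at chr14:68796244-68796493 and chr14:68793417-68793666 on the minus strand for ZFP36L1. Of the 10 genes, 6 are in that promoter table. Capitals mark matches, on either strand, to the letters listed after the sequences.
ZFP36 upstream: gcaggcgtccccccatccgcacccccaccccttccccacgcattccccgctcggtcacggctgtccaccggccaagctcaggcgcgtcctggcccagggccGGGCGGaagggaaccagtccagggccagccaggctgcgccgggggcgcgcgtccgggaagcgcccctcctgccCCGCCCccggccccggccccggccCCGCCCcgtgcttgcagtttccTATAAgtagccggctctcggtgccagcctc
ZFP36L1 upstream, start 1: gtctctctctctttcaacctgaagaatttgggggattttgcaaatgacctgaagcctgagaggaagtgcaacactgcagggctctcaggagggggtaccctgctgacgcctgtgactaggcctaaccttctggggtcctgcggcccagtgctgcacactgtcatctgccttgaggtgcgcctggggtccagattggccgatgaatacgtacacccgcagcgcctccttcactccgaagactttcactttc
ZFP36L1 upstream, start 2: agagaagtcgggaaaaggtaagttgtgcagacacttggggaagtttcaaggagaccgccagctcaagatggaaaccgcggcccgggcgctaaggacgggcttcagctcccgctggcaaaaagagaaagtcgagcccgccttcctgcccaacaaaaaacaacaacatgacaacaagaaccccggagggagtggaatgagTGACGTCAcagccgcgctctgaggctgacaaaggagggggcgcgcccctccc
The window of ZFP36 had a GC content of 76.4% and held 3 matches to the GC box, searched as GGGCGG, and 1 match to the TATA element, searched as TATAA. The first window of ZFP36L1 had a GC content of 56.4% and no match to any motif searched. The second, which lies inside the gene, had a GC content of 58.4% and 1 match to the cyclic AMP response element, searched as TGACGTCA. Over all 35116 windows of this length, 42.6% held the GC box, 18.9% the TATA letters and 1.65% the cyclic AMP response element. Matches to the AP-1 site (TGANTCA), the EGR site (GCGNGGGCG) and the CArG box were looked for and none lay in these 3 windows, against 6.57%, 8.41% and 1.16% of all windows. No match in these windows overlapped another. A match is a description of letters and no measurement of binding was made.

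All 19 features were measured above the inferred detection limits in all 8 samples. The lowest single value among them was 192 units, in PARN feature 27354, and the limits ran from 24.2 to 48.2 units in sense and 47.4 to 72.4 units in antisense samples. Values are deposited intensities in units of 1000000, and they compare samples within a feature, not features with each other. The sample medians over all features were 579 to 590 units in sense and 548 to 571 units in antisense samples. Of the HEK293 markers, 6 of 8 measured were detected in both constructs (NEFL, NEFM, VIM, KRT8, KRT18 and CDH2), and PAX2 and SOX11 were under the limits. Of the 8 markers, 6 had a negative difference, and none passed an adjusted p of 0.05 in limma. The 6 include PAX2, under the limits, and KRT8 (-0.20, SE 0.21), KRT18 (-0.21, SE 0.19) and CDH2 (-0.20, SE 0.16). NEFL, a neurofilament, read 2800, 4140, 2780 and 2430 units in sense, against 4350, 4740, 4980 and 4780 units in antisense samples (log2 difference -0.66, SE 0.16, adjusted p = 0.230 in limma). Its constructs did not overlap, with sense lower, as for 3.04% of all features. NEFM had -0.42 (SE 0.22) and VIM 0.36 (SE 0.19). Whether these marker differences have a part in the differences described below was not tested. Of 12 measured markers of other cells, 9 were detected in neither construct, and CD3E, COL1A1 and AQP2 were detected in both. In each construct 1 sample is called the one that stood apart, by a rule that some sample must always meet. Leaving it out gave the lowest mean coefficient of variation among the remaining 3, at 0.189 without sense 4 and 0.119 without antisense 2. Leaving out another sample gave 0.213 to 0.242 in sense and 0.166 to 0.182 in antisense. The rule alone does not show that a sample is an outlier. Results are also given for 3 against 3 samples without sense 4 and antisense 2.

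ZFP36 was the one gene of the set with a large difference, and it was higher in the sense cells. ZFP36 feature 2800 read 1350, 977, 1060 and 681 units in sense 1 to 4, against 428, 284, 389 and 476 units in antisense 1 to 4. The sense samples all lay above the antisense samples, and the lowest of each construct was its sample that stood apart. The log2 difference, sense minus antisense, was 1.35 (SE 0.21, 95% confidence interval 0.89 to 1.81, n = 4 each), or 2.55-fold. Its adjusted p in limma over all 25094 features was 0.076, so it missed the threshold of 0.05, although its unadjusted p of 5.77e-05 was the 19th smallest. Without sense 4 and antisense 2, in a fit that had no dye term, the difference was 1.38, with an adjusted p in limma of 0.0050. SAM (significance analysis of microarrays, the statistic named in the design text) on the same 3 against 3 samples called ZFP36 higher in sense at a false discovery rate of at most 5.4%. The difference was 1.55 among the Cy3 samples and 1.15 among the Cy5 samples. Of all features, 27 (0.108%) had a difference at least as large. In a mixed population, more cells that express ZFP36 and more ZFP36 mRNA per cell cannot be told apart.

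In the 2 paralogs of ZFP36 the constructs overlapped over all 8 samples. ZFP36L1 feature 15973 read 3450, 3070, 2960 and 4240 units in sense, against 3250, 2480, 3290 and 3220 units in antisense samples, and the ranges overlapped (log2 difference 0.16, SE 0.15, adjusted p = 0.62 in limma). Its second feature, 31815, read 271, 283, 220 and 312 units in sense and 378, 307, 248 and 236 units in antisense samples (log2 difference -0.09, SE 0.20, adjusted p = 0.84). The features thus lay on opposite sides of 0.
ZFP36L2 feature 25306 read 4730, 5690, 4080 and 7670 units in sense, against 6290, 4460, 6820 and 6760 units in antisense samples (log2 difference -0.15, SE 0.20, adjusted p = 0.72). The dyes were not on the same side of 0, which was not tested: the difference was -0.58 among the Cy3 samples and 0.27 among the Cy5 samples. ZFP36L2 also depended on the samples that stood apart: its difference was -0.33 without sense 4, -0.36 without antisense 2 and -0.47 without both (adjusted p = 0.079 in limma). The samples left out were its highest sense sample, at 7670 units, and its lowest antisense sample, at 4460 units. The remaining 3 sense samples, at 4080 to 5690 units, then lay below the remaining 3 antisense samples, at 6290 to 6820 units. The share of all features separated at 3 against 3 samples was not counted. For ZFP36L1 the differences without both samples were -0.05 for feature 15973 and -0.13 for feature 31815. Over all 8 samples, the 95% confidence intervals were -0.18 to 0.50 for ZFP36L1 feature 15973 and -0.61 to 0.30 for ZFP36L2, so neither reached the lower bound of ZFP36.

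Whether the paralogs changed unequally was tested on the log2 value of one gene minus that of the other within each sample, with the brightest feature of each gene. ZFP36 minus ZFP36L1 was 1.19 higher in sense than in antisense samples, with no overlap between the constructs (exact two-sided permutation p = 0.0286, the smallest that 70 assignments allow, 0.0429 adjusted over 3 pairs). ZFP36 minus ZFP36L2 was 1.51 higher, again with no overlap (exact permutation p = 0.0286, adjusted 0.0429). ZFP36L1 minus ZFP36L2 differed by 0.31 (exact permutation p = 0.0857), which did not pass. Permuting within dye gave an exact p of 0.0556 for both ZFP36 pairs, the smallest that 36 assignments allow, and quantile normalization gave adjusted p-values of 0.0857. ZFP36 had been seen to be high before this test was set, so the first pair of tests describes the size of the gap rather than giving independent support. The permutations treat the 8 samples as exchangeable. The sample medians matched within pairs of a construct, at 579 and 579 units in sense 1 and 2, 590 and 590 in sense 3 and 4, 571 and 571 in antisense 1 and 2, and 548 and 549 in antisense 3 and 4. Whether such a pair shared an array is not given in the sources used here. With these pairs as a random block the adjusted p of ZFP36 in limma was 0.233, against 0.076 without it.

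**Figure D1:**
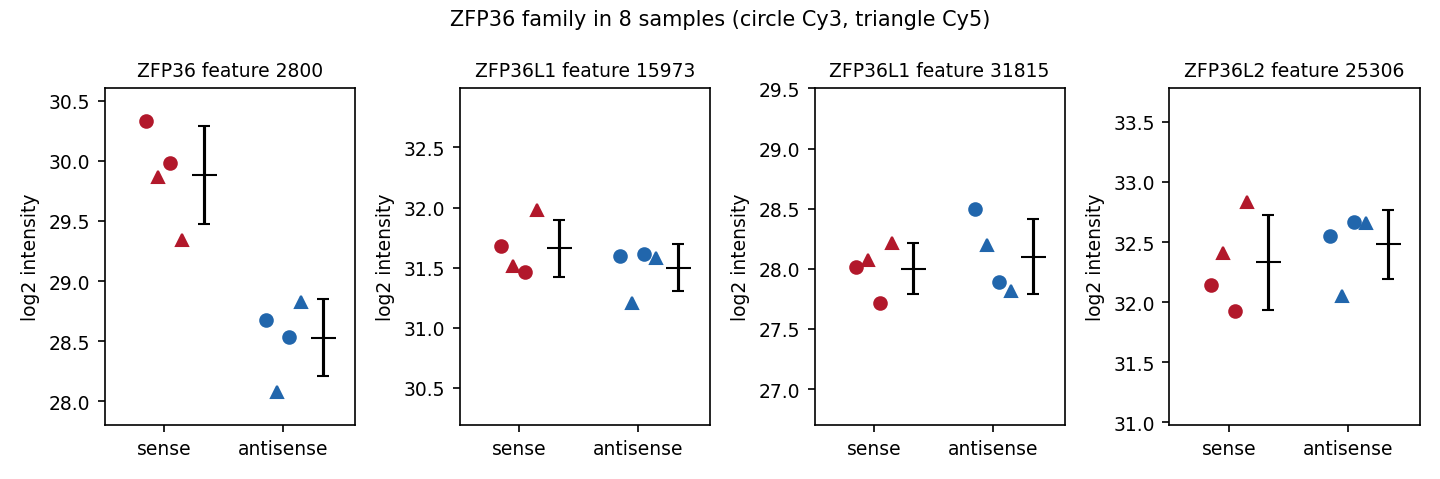
Log2 intensity of the ZFP36 family features in the 4 sense (red) and 4 antisense (blue) samples, with the mean and SD beside each group; circles are Cy3 and triangles Cy5 samples, and each panel has its own offset. ZFP36 separates the constructs, with 681 to 1350 units in sense against 284 to 476 units in antisense samples, and the features of ZFP36L1 and ZFP36L2 overlap.

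CNOT7, the catalytic subunit, was lower in the sense cells on each of its 4 features, by 0.32 to 0.56 on the log2 scale. CNOT7 feature 2505 read 7920, 8290, 6480 and 7040 units in sense, against 11600, 9600, 12100 and 10500 units in antisense samples. No sense sample reached the lowest antisense sample, and the difference was -0.56 (SE 0.13, 95% confidence interval -0.85 to -0.27, 0.678-fold). Feature 39346 read 4490, 3650, 3920 and 3270 units in sense, against 5810, 4510, 5700 and 4740 units in antisense samples, again without overlap (-0.44, SE 0.11). Their adjusted p-values in limma were 0.215 and 0.237, so neither passed. SAM called feature 2505 lower at a false discovery rate of at most 10.3%, and without sense 4 and antisense 2 its difference was -0.60, with an adjusted p of 0.040 in limma.
CNOT7 feature 5398 read 2410, 2000, 2290 and 2680 units in sense, against 3040, 2540, 2950 and 3130 units in antisense samples. Feature 39533 read 1550, 1390, 1580 and 1900 units in sense, against 2150, 1760, 1970 and 2190 units in antisense samples. In both features 1 sample, sense 4, lay above the lowest antisense sample, antisense 2 (differences -0.32, SE 0.13, and -0.33, SE 0.14, adjusted p = 0.333 each in limma). The 4 features report on 1 gene, and the annotation ties them to 2 RefSeq transcripts, 2505 and 39346 to one and 5398 and 39533 to the other. They are not independent of each other.

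CNOT8, the paralog that can take the place of CNOT7, read 1350, 1090, 1460 and 1700 units in sense, against 1580, 1320, 1630 and 1380 units in antisense samples (-0.09, SE 0.15, adjusted p = 0.79 in limma). The ranges overlapped. CNOT7 minus CNOT8, a pair set after the values were seen, was -0.47 in sense relative to antisense samples, with an exact permutation p of 0.114. That test did not separate the paralogs.

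CNOT1, the scaffold to which ZFP36 proteins bind, overlapped between the constructs on its 3 features, and its difference was not of the same size in the 2 dyes, a contrast that was not tested. CNOT1 feature 3857 read 2360, 1420, 2790 and 2000 units in sense, against 1600, 1740, 1410 and 1670 units in antisense samples (0.38, SE 0.19, adjusted p = 0.38 in limma). Within Cy3 the difference was 0.77, and within Cy5 it was -0.017. Feature 9284 read 1100, 852, 1270 and 647 units in sense, against a narrow 867, 824, 832 and 868 units in antisense samples (0.14, SE 0.17, adjusted p = 0.69). Feature 19481 read 361, 330, 465 and 307 units in sense, against 348, 353, 402 and 367 units in antisense samples (-0.02, SE 0.16, adjusted p = 0.96). In all 3 features the 2 Cy3 sense samples lay above the 2 Cy5 sense samples.

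**Figure D2:**
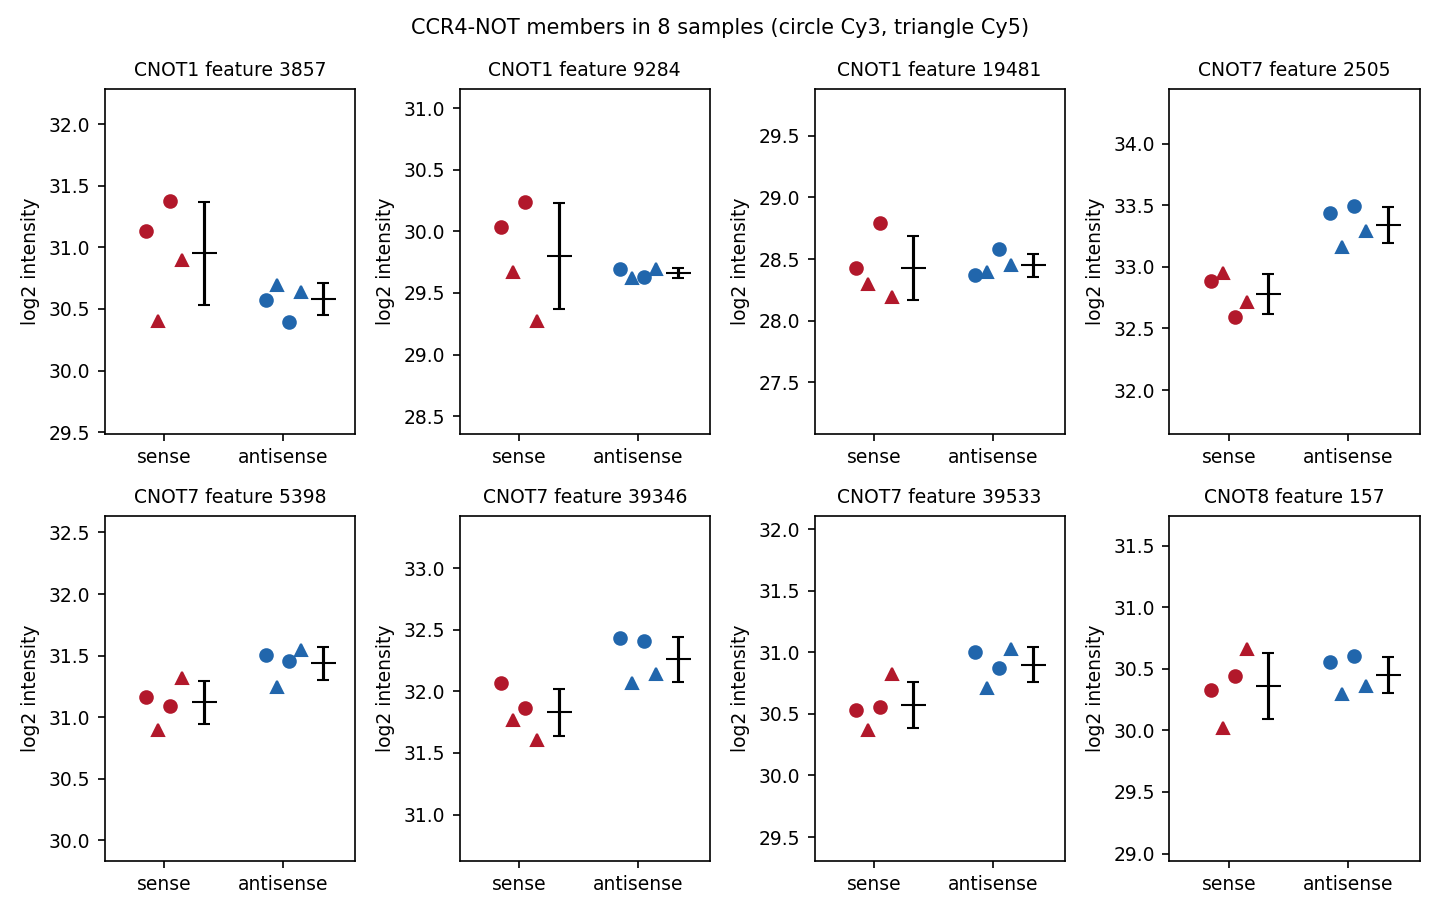
Log2 intensity of the CNOT1, CNOT7 and CNOT8 features in the 4 sense (red) and 4 antisense (blue) samples, with the mean and SD beside each group; circles are Cy3 and triangles Cy5 samples. CNOT7 features 2505 and 39346 lie lower in every sense sample, with 6480 to 8290 against 9600 to 12100 units for feature 2505, and the other features overlap.

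PAN2, the catalytic subunit of the PAN2-PAN3 deadenylase that trims tails early, read 515, 415, 678 and 1020 units in sense, against 474, 461, 498 and 501 units in antisense samples (0.36, SE 0.25, adjusted p = 0.48 in limma). The mean rested on sense 4: without it the difference was 0.08, and leaving out each other sample in turn gave 0.30 to 0.60, the highest without sense 2. PARN, a deadenylase that also trims the tails of small non-coding RNAs, had differences of -0.11 to -0.04 on its 3 features, each with an adjusted p over 0.05 in limma.
PARN feature 7287 read 2670, 2250, 2860 and 2180 units in sense, against 2660, 2000, 2820 and 2770 units in antisense samples (-0.04, SE 0.13). PARN feature 36441 read 1360, 1220, 1550 and 1270 units in sense, against 1530, 1320, 1540 and 1440 units in antisense samples (-0.11, SE 0.12). PARN feature 27354 read 232, 304, 232 and 233 units in sense, against 287, 192, 282 and 311 units in antisense samples (-0.09, SE 0.20). The ranges of all 3 overlapped, and the widest of their 95% confidence intervals ran from -0.54 to 0.37.

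ELAVL1, which opposes decay at AU-rich elements, gave features that disagreed in 1 sample. Feature 3793 read 989, 839, 1110 and 592 units in sense, against 755, 727, 713 and 685 units in antisense samples (0.26, SE 0.17, adjusted p = 0.46 in limma). Feature 32944 read 6480, 4670, 6840 and 3670 units in sense, against 5530, 4790, 5270 and 5310 units in antisense samples (0.01, SE 0.15). Sense 4 was the lowest of the 8 samples in both. Feature 10096 read 938, 1350, 1080 and 2750 units in sense, against 1220, 1570, 1130 and 1030 units in antisense samples (0.19, SE 0.25), and there sense 4 was the highest. Without sense 4 the differences were 0.41 for feature 3793, 0.14 for feature 32944 and -0.10 for feature 10096.

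Over the set, 11 of the 19 features had a negative and 8 a positive difference. The median was -0.04 for the set, -0.04 for all 25094 features and -0.004 for features detected in both constructs. None of the 19 passed an adjusted p of 0.05 in limma, a threshold that 17 features, or 0.0677% of all, passed. At an unadjusted p under 0.05 there were 5 of the 19, against 14.2% of all features. The 5 were ZFP36, higher in sense, as were 6.65% of all features, and the 4 CNOT7 features, lower in sense, as were 7.5%. SAM at a false discovery rate of at most 5.4% with a change of at least 1.4-fold called 1 of the 19, ZFP36, against 1.81% of all features. At 10.3% it called 2, with CNOT7 feature 2505 added, against 5.63% of all. In limma on the same 3 against 3 samples these 2 features passed an adjusted p of 0.05, as did 2.19% of all. Within Cy3 alone, with 2 against 2 samples, 8 of the 19 passed, as did 11.5% of all features. The constructs did not overlap, with sense higher, in 1 of the 19, against 3.35% of all features, and with sense lower in 2 of the 19, against 3.04%.

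**Figure D3:**
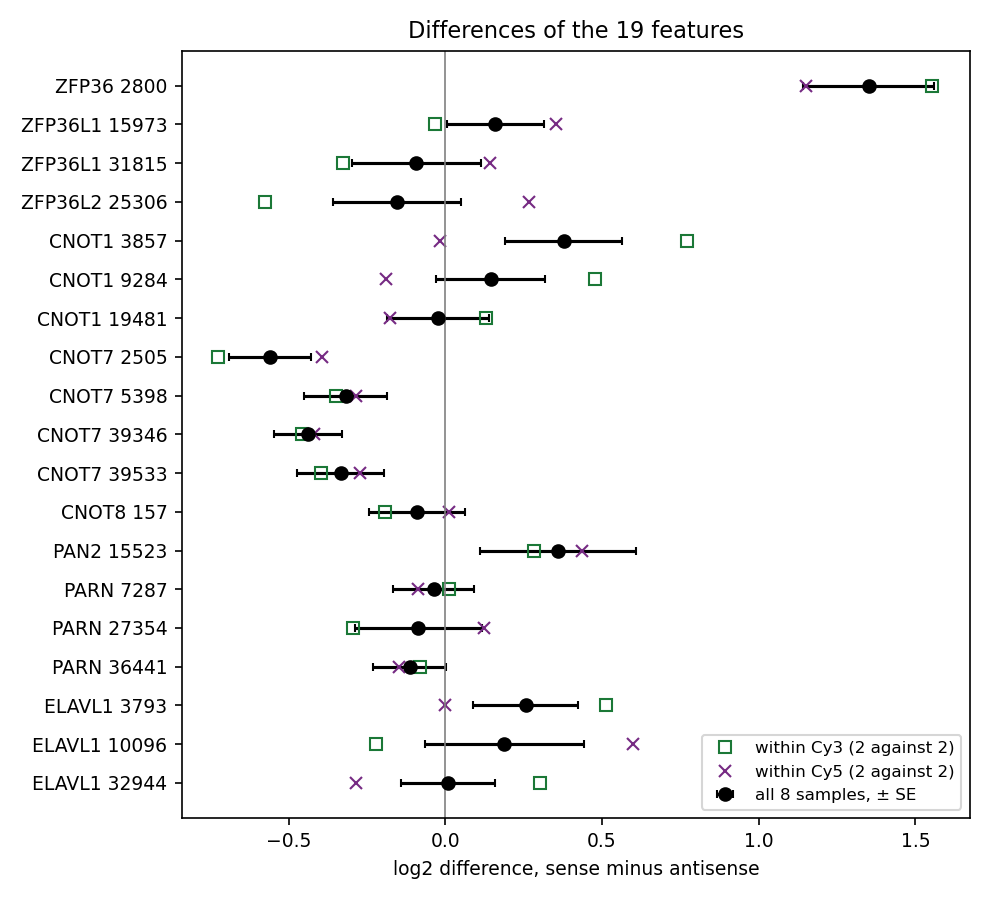
Log2 difference, sense minus antisense, of the 19 features: black points with SE bars are the limma estimates over 8 samples, green squares the differences within Cy3 and purple crosses those within Cy5, each of 2 against 2 samples. ZFP36 lies at 1.35 and the 4 CNOT7 features between -0.56 and -0.32 with both dyes on the same side, while for the CNOT1 and ELAVL1 features the dyes lie on opposite sides of 0.

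The rest of the mRNA decay machinery was followed through 6 lists, each gene by its brightest feature, and no brightest feature passed an adjusted p of 0.05 in limma. In limma on 3 against 3 samples 2.19% of all features passed, and SAM at 5.4% called 1.81% of all features. Of the other CCR4-NOT subunits, 6 of 7 were measured, with 3 positive and 3 negative differences and a median of -0.002. CNOT3 (0.50, SE 0.19) and CNOT4 (0.38, SE 0.15), a ubiquitin ligase of the complex, had an unadjusted p under 0.05, and CNOT9, a subunit that binds silencing adaptors, had -0.27 (SE 0.17). CNOT4 read 2030, 1820, 1850 and 1270 units in sense, against 1300, 1310, 1410 and 1250 units in antisense samples, so that sense 4 alone lay among the antisense samples. Without sense 4 and antisense 2 its difference was 0.53, with an adjusted p of 0.046 in limma. CNOT3 then had 0.63 (adjusted p = 0.069 in limma) and CNOT9 -0.29 (adjusted p = 0.450), so neither passed.

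Of the other deadenylation factors and poly(A)-binding proteins, 18 of 19 were measured, 11 with a positive difference, with a median of 0.09. The 3 with the smallest unadjusted p-values were TOB2, BTG1 and NANOS1. PAIP1, lower in sense (-0.34, SE 0.15), had an unadjusted p of 0.0477 in limma, against 0.0466 for NANOS1. TOB1 had a difference of 0.05 (SE 0.21). TOB2, which links poly(A)-binding protein to the CNOT7 and CNOT8 enzymes, read 1700, 1120, 1410 and 744 units in sense, against 790, 647, 863 and 855 units in antisense samples (0.60, SE 0.19, adjusted p = 0.278 in limma). SAM called both of its features at 5.4%, as it did 1.81% of all features. Without sense 4 and antisense 2 the difference was 0.73 (adjusted p = 0.044 in limma), in a fit where 2.19% of all features passed. BTG1, of the same protein family, read 4160, 2570, 4030 and 4060 units in sense, against 2590, 1540, 2890 and 2920 units in antisense samples (0.59, SE 0.21, adjusted p = 0.292). NANOS1, an RNA-binding protein that recruits CCR4-NOT, had a difference of 0.32 (SE 0.14). Without sense 4 and antisense 2, BTG1 had 0.33 (adjusted p = 0.301 in limma) and NANOS1 0.25 (adjusted p = 0.294), so neither passed.

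The decapping and exosome lists had negative medians. Of 17 decapping and 5′ to 3′ decay genes, all measured, 13 had a negative difference, with a median of -0.18. The median was -0.04 for all features and -0.004 for features detected in both constructs, each over features rather than 1 brightest feature per gene. DCPS, the scavenger enzyme that hydrolyses the cap left after decay from the 3′ end, read 4220, 3790, 3830 and 2950 units in sense, against 4990, 5200, 5070 and 5650 units in antisense samples (-0.51, SE 0.13, adjusted p = 0.246 in limma). Its constructs did not overlap, with sense lower, as for 3.04% of all features. NUDT16, a decapping enzyme, had -0.38 (SE 0.12), and LSM7, part of the ring that binds shortened tails, had -0.38 (SE 0.13). Without sense 4 and antisense 2 none of these passed in limma. DCPS then had -0.41 (adjusted p = 0.069), NUDT16 -0.30 (adjusted p = 0.14) and LSM7 -0.30 (adjusted p = 0.11).
Of 17 exosome and SKI complex genes, all measured, 11 had a negative difference, with a median of -0.16. Among these, the exosome subunits EXOSC7 (-0.40, SE 0.11), EXOSC8 (-0.42, SE 0.14) and EXOSC2 (-0.43, SE 0.16) had the smallest unadjusted p-values. Without sense 4 and antisense 2, 2.19% of all features passed an adjusted p of 0.05 in limma. EXOSC8 was the only one of the 17 that did (-0.51, adjusted p = 0.040). EXOSC7 then had -0.37 (adjusted p = 0.084) and EXOSC2 -0.38 (adjusted p = 0.147). Without these samples the decapping list had a median of -0.22 with 5 of 17 positive, and the exosome list a median of -0.10 with 8 of 17 positive. No test of a direction was made for either list.

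Among other AU-rich element binding proteins, 11 of 15 were measured, 4 with a positive and 7 with a negative difference (median -0.02). TIAL1, a translational repressor at these elements, had 0.48 (SE 0.18), and AUH had -0.35 (SE 0.13). Without sense 4 and antisense 2, TIAL1 had 0.39 (adjusted p = 0.228 in limma) and AUH -0.43 (adjusted p = 0.095), so neither passed. ELAVL3, the neuronal relative of ELAVL1, was not detected in either construct. SAM called 1 of 3 features of TIA1 lower at 5.4% (feature 28434, -0.54, SE 0.27), while the 3 features of that gene ran from -0.54 to 0.27.
ZFP36 protein is inactivated by phosphorylation through the p38 pathway, after which 14-3-3 proteins bind it, and protein phosphatase 2A reverses this. Of 15 genes of this control, 12 were measured, 6 on each side of 0 (median 0.04). YWHAQ, a 14-3-3 protein, read 32500, 32000, 34000 and 21000 units in sense, against 40700, 35900, 41100 and 41500 units in antisense samples (-0.44, SE 0.16, adjusted p = 0.302 in limma). MAPK11, a p38 kinase, had 0.35 (SE 0.17), and YWHAG, another 14-3-3 protein, had -0.32 (SE 0.16). PPP2CA, the catalytic subunit of the phosphatase, had -0.31 over all samples and -0.54 without sense 4 and antisense 2 (adjusted p = 0.037 in limma). In that fit 2.19% of all features passed 0.05. YWHAQ then had -0.32 (adjusted p = 0.094), MAPK11 0.41 (adjusted p = 0.298) and YWHAG -0.32 (adjusted p = 0.118). SAM called 1 of 10 features of MAPK3, the kinase ERK1, higher at 5.4% (feature 13174, 0.61, SE 0.24).

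**Figure D4:**
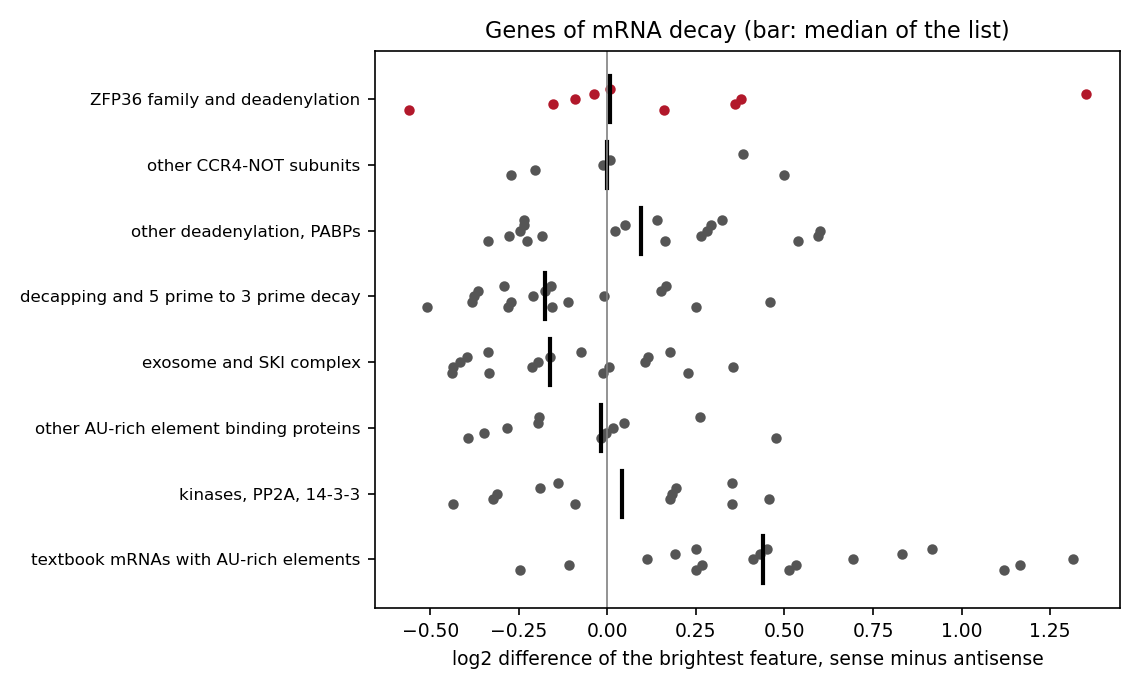
Log2 difference, sense minus antisense, of the brightest feature of each measured gene, 1 point per gene, by list, with a vertical bar at the median of the list. The 9 genes of the ZFP36 family and deadenylation are in red, with ZFP36 at 1.35, the decapping and exosome medians lie at -0.18 and -0.16, and the median of mRNAs with AU-rich elements lies at 0.44.

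The mRNAs known from textbooks to carry AU-rich elements, which ZFP36 proteins can bind, leaned towards the sense cells. Of 28, 18 were measured and 16 of these had a positive difference, with a median of 0.44. The share of all features with a positive difference was not counted. The 2 with a negative difference were CCNB1 (-0.11, SE 0.20) and E2F1 (-0.25, SE 0.11, unadjusted p = 0.0434 in limma). The 10 features of E2F1 ran from -0.37 to -0.21. The median was -0.04 for all features and -0.004 for features detected in both constructs, as these 18 were. Those 2 medians are over features, while the list has 1 brightest feature per gene. Without sense 4 and antisense 2 the count was again 16 and the median 0.35. The list was chosen with these data known, and no p-value was computed for it.
CDKN1A, the cell cycle inhibitor p21, read 2450, 3190, 3050 and 5910 units in sense, against 1290, 2030, 1160 and 1210 units in antisense samples (1.32, SE 0.22, adjusted p = 0.0999 in limma). All of its 11 features were called by SAM at 5.4%, at 1.08 to 1.47, and only feature 25127 passed in limma (1.47, SE 0.21, adjusted p = 0.0496). The 11 features report on 1 gene in the same 8 samples and are not independent of each other. SAM at 5.4% called 1.81% of all features.
JUN, an AP-1 subunit, read 68700, 43700, 43300 and 46900 units in sense, against 21800, 29500, 25000 and 29900 units in antisense samples (0.92, SE 0.18, adjusted p = 0.185 in limma). Its constructs did not overlap, with sense higher, as for 3.35% of all features. SAM called all 10 features of JUN, at 0.79 to 1.07, and these are not independent of each other either. IER3, an early response gene, read 1200, 1730, 803 and 700 units in sense, against 560, 589, 609 and 580 units in antisense samples (0.83, SE 0.25, adjusted p = 0.274), and SAM called it too. Without sense 4 and antisense 2, CDKN1A, JUN and IER3 had adjusted p-values of 0.0048, 0.034 and 0.049 in limma. In that fit these were the 3 of the 18 genes that passed 0.05, as did 2.19% of all features. SAM also called 6 of 10 features of TGFB1 (0.42 to 0.62), while its features as a whole ran from -0.009 to 0.62. The brightest, at 0.25 (SE 0.30, adjusted p = 0.69 in limma), was not called. The 6 called had adjusted p-values of 0.354 to 0.511 in limma. Their lowest value was 72.8 units in antisense 4, where the inferred limit was 47.4 units. SAM called 1 of 13 features of VEGFA (feature 23078, 0.96, SE 0.22), while the features of VEGFA as a whole ran from -0.17 to 0.96.

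FOS and EGR1, immediate-early transcription factors of that list, were lowest in the same pair of samples that stood apart in general. They were picked out after their values were seen, and other early genes of the list shared the pattern in part or not at all. DUSP1 was lowest of all 8 samples in antisense 2 with 1720 units, but highest in sense 4 with 7640 units. IER3 was lowest of its construct in sense 4 with 700 units, but not in antisense 2. JUN was second highest of its construct in both samples. MCL1 (30500 and 15800 units) and CCNB1 (7460 and 8800 units), also of the list, were lowest of their construct in sense 4 and in antisense 2. FOS read 29900, 17900, 23200 and 4720 units in sense, against 13200, 650, 14800 and 18300 units in antisense samples. EGR1 read 44100, 28100, 39300 and 5750 units in sense, against 27100, 776, 24800 and 24000 units in antisense samples. Antisense 2 lay below the other antisense samples by more than an order of magnitude in both. Their differences were 1.16 (SE 0.82) for FOS and 1.12 (SE 0.86) for EGR1 over 8 samples, and 0.60 and 0.53 without the 2 samples (adjusted p = 0.098 and 0.090 in limma). ZFP36 was also lowest in these 2 samples of each construct, with 681 units in sense 4 and 284 units in antisense 2, and its difference of 1.35 became 1.495 without sense 4, 1.24 without antisense 2 and 1.38 without both.

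The 5 genes with profiles closest to ZFP36 were found among 11618 other genes detected in all 8 samples, by the root mean square distance of log2 values after each gene was centred on its mean. They were PKD1 at 0.313, BCL6 at 0.313, AGPAT4-IT1 at 0.324, MAP3K14 at 0.333 and TIMP3 at 0.340. PKD1 encodes polycystin-1, BCL6 a transcriptional repressor, MAP3K14 the NF-kappa-B-inducing kinase and TIMP3 a metalloproteinase inhibitor. Their differences were smaller than that of ZFP36, at 0.92 (SE 0.19), 1.02 (SE 0.20), 0.82 (SE 0.19), 0.88 (SE 0.17) and 0.98 (SE 0.20) in the same order, and their adjusted p-values in limma ran from 0.154 to 0.215. The distance is over 8 samples that share 2 constructs, and the gap between constructs enters it.

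**Figure D5:**
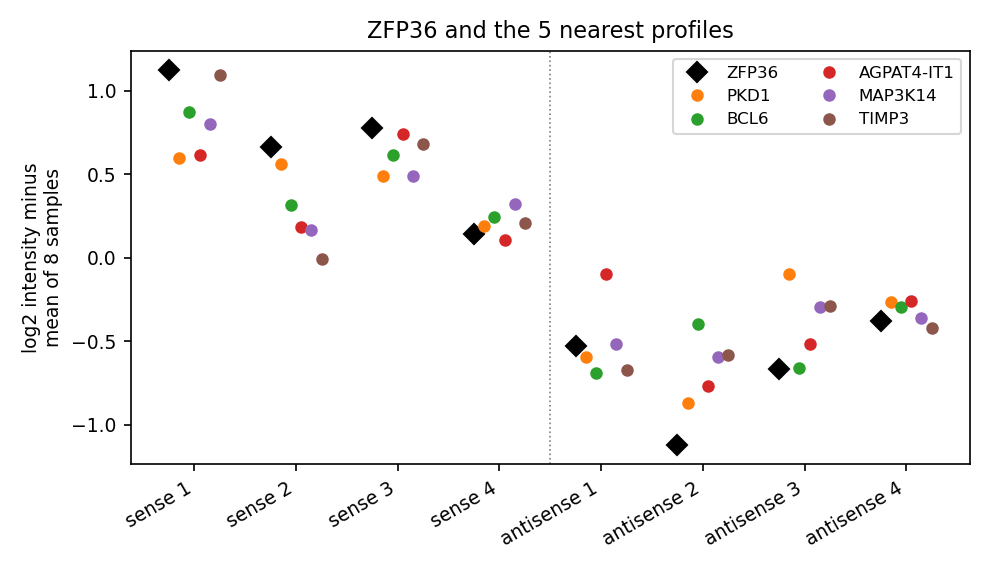
Log2 intensity minus the mean of the 8 samples for ZFP36 (black diamonds) and the 5 genes with the nearest profiles (coloured points), by sample, sense left and antisense right of the dotted line. ZFP36 ran from 0.14 to 1.13 in sense and from -1.12 to -0.38 in antisense samples, and all 5 other genes lay below 0 in every antisense sample.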

How the data were processed

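Total RNA of 8 HEK293 samples was labelled and hybridised to Agilent arrays. Per the submitters' processing notes, Agilent Feature Extraction 9.5 was used. The deposited values are linear intensity values, scaled by the authors to the 40% trimmed mean of each sample, per the design text. Per the same text, a feature whose detection was mixed among the replicates of a construct was dropped. How background and dye were corrected, and the absolute scale, is not given in the sources used here. Of 45015 features, 25094 had values in all samples. The scale was kept, since trimmed means differed by at most 2.02%, and detection limits were inferred from the deposited filter.

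Log2 intensities were compared with limma 3.58.1 in R 4.3.3 (construct and dye, eBayes with a trend, Benjamini-Hochberg adjustment over 25094 features). Every adjusted p-value given for 1 feature comes from limma, with a threshold of 0.05. The fit was checked on simulated data. The SAM statistic was computed anew over the 20 possible assignments of 3 against 3 samples, with a 1.4-fold filter. It leaves out 1 sample per construct, the one whose removal gave the lowest mean coefficient of variation, which favours small p-values. Nothing was imputed. Paralogs were compared by exact permutation. The number of arrays limits the precision. For SAM and for limma on 3 against 3 samples, sense 4 and antisense 2 were left out. The limma fit on 3 against 3 samples and the fits within 1 dye had no dye term, unlike the main fit over 8 samples.

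The members, the pathway lists and the tests were chosen with earlier results of these data known. All member features are named. From each pathway list, the features called in limma or by SAM at 5.4% and up to 3 genes with the smallest unadjusted p are named, together with the 5 genes nearest in profile to ZFP36. Any other gene was named after its values were seen. Gene names came from the platform annotation. Alternatives were the dye term, a replicate block, a random block, quantile and median scaling, detected features only, no variance trend, each sample left out, each dye alone, 3 against 3 samples and an added 100 units.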

Additional observations from a re-analysis of the deposited data

Results flagged for a closer look

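In 3 of the 38 groups of 4 samples formed by the 19 features and 2 constructs, 1 sample lay far from the other 3 relative to the range of its group. Chance alone flags about 1 in 20 groups. In ZFP36L1 feature 15973, antisense 2 read 2480 units, against 3220 to 3290 units in the other antisense samples. In PARN feature 7287, antisense 2 read 2000 units, against 2660 to 2820 units in the other antisense samples. In PARN feature 27354, sense 2 read 304 units, against 232 to 233 units in the other sense samples. Antisense 2 is also the sample that stood apart over all features. Without antisense 2, the log2 difference of ZFP36L1 feature 15973 was 0.046, against 0.16 with all samples, and that of PARN feature 7287 was -0.12, against -0.04. Without sense 2, the difference of PARN feature 27354 was -0.20, against -0.09.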

How the results depend on the processing

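Of 19 alternatives per feature, ZFP36 kept its direction in all, at 1.15 to 1.55, and passed an adjusted p of 0.05 in limma in 3: without antisense 4 (1.54, adjusted p = 0.035), within Cy3 (1.55, adjusted p = 0.011) and for 3 against 3 samples (adjusted p = 0.0050). Its adjusted p was 0.253 with the replicate block and 0.233 with samples 1 and 2, and 3 and 4, as a random block. In all, 7 features kept their sign in every alternative: ZFP36, the 4 of CNOT7, PAN2 and PARN 36441. The other 12, none past the threshold over 8 samples, changed sign in some. Within Cy3, where 11.5% of all features passed the threshold, 8 members did: those of ZFP36 and ZFP36L2, CNOT1 3857 and 9284, CNOT7 2505, 39346 and 39533, and ELAVL1 3793. In this setting ZFP36L1 15973 had -0.033, CNOT1 19481 0.13, PARN 7287 0.013 and ELAVL1 10096 -0.22. Within Cy5, ZFP36L1 31815 had 0.14, ZFP36L2 0.27, CNOT1 3857 -0.017, CNOT1 9284 -0.19, CNOT8 0.012, PARN 27354 0.12, ELAVL1 3793 -0.0019 and ELAVL1 32944 -0.28. For 3 against 3 samples, ZFP36L1 15973 had -0.045, CNOT1 19481 0.037 and ELAVL1 10096 -0.018, and with median centring ELAVL1 32944 had -0.054. Leaving out 1 sample gave ranges that crossed 0: ZFP36L1 31815 -0.21 to 0.077, CNOT1 19481 -0.13 to 0.029, CNOT8 -0.24 to 0.017, PARN 7287 -0.12 to 0.067, PARN 27354 -0.27 to 0.012, ELAVL1 10096 -0.099 to 0.31 and ELAVL1 32944 -0.065 to 0.14. The cause of these changes was not tested.

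The 17 features past the threshold became 7 with the replicate block, 7 with the random block, 10 over detected features, 10 without a variance trend, 2888 within Cy3, 4 within Cy5, 549 for 3 against 3 samples, 2 with 100 units added and 4 to 20 with 1 sample left out. SAM on 3 against 3 samples called 453, by another statistic and with other limits: a false discovery rate of at most 5.4% and a 1.4-fold filter. Same-numbered samples correlated at 0.28, 0.00085, 0.11 and -0.11 over features, and differently numbered ones at -0.28 to 0.28. A number also sets the dye, which was not taken out of these values. They therefore cannot decide whether the numbers pair the samples. Under quantile normalization SAM called 1108 features at 5.4%, 461 of them higher in sense, against 453 and 401. ZFP36 minus ZFP36L1 was 1.08 under quantile normalization and 1.05 to 1.48 with 1 sample left out, and ZFP36 minus ZFP36L2 was 1.37 and 1.29 to 1.85. Neither passed in these, and with 3 against 4 samples the smallest exact p, 0.0571, cannot. Permuted within dye, the same differences of 1.19 and 1.51 had an adjusted p of 0.0833. Features near the inferred limits carry the least signal over background, and no member is among them.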
